A study of Arabidopsis thaliana with 27 samples.

Results

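The tau and phi glutathione transferases were taken as a fixed list of 39 loci, 28 of the tau class (GSTU) and 11 of the phi class (GSTF), among the 32832 loci of the deposited count table. All 39 loci had a row in the table. The filter on low counts left 33 of them for testing (25 tau and 8 phi) among 19794 loci in all. The 6 members that were not tested had few or no counts over the 27 libraries: GSTF11 had none, GSTU15 had 3, GSTF14 had 6, GSTF12 had 25, GSTU21 had 40 and GSTU23 had 62.

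The libraries came from hypocotyls of etiolated Arabidopsis thaliana seedlings of 3 genotypes, xpf-3, uvr8-6 and the wild type Columbia-0 (WT). Seedlings of all groups were grown in darkness for 2.5 days on 0.5x MS medium that held 100 µM of the gibberellin GA4. Each genotype received UV-B at 3000 µmol m-2 in about 5 min or at 30000 µmol m-2 in about 45 min, or stayed dark, with 3 libraries per group and 9 groups. Irradiated seedlings went back to darkness, and hypocotyls were cut 6 h after exposure per the extraction protocol, although the series title speaks of 2 days. XPF (UVH1) is a subunit of the endonuclease that cuts out UV-damaged DNA in nucleotide excision repair, and UVR8 is the UV-B photoreceptor. Each mutant is represented by a single allele.

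Glutathione transferases join the tripeptide glutathione to reactive, electrophilic compounds, and some bind small molecules without converting them. The tau and phi classes are the large plant classes of the family, and many of their genes lie in tandem arrays. Conjugates are moved into the vacuole by transporters of the ABCC group. Many members are known from Arabidopsis as transcripts that rise after herbicides, oxidised lipids, salicylic acid or pathogens, and TGA transcription factors, which bind TGACG elements, are among their known regulators.

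Libraries held 4508097 to 11045334 counts in xpf-3, 12488317 to 15342281 in uvr8-6 and 6163441 to 11984665 in WT, and levels are given as CPM, counts relative to library totals scaled by the trimmed mean of M values. The authors' description sheet places the xpf-3 and WT libraries in an earlier sequencing run and all uvr8-6 libraries in a later one, so run and genotype cannot be told apart for uvr8-6. UVR8 had 3.50 ± 0.945 CPM in uvr8-6 dark and 70.6 ± 0.994 CPM in WT dark (SD, n = 3 each), and UVH1 had 46.5 ± 6.25 CPM in xpf-3 dark and 19.2 ± 0.201 CPM in WT dark (SD, n = 3 each). Such whole-gene counts say nothing on the protein. The labels do not describe the replicates as separately grown cultures, so p-values measure only the spread between these libraries. In such bulk samples, fewer cells of a type and less RNA per cell cannot be told apart.

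Neighbouring copies can share reads. GSTU24 and GSTU25 were 79.4% identical over their aligned coding sequences, and they shared 0% of their 50-base stretches. The first 150 aligned coding bases are shown because this pair carried large values in all 3 genotypes; the capitals mark the 26 positions at which the sequences differ (RefSeq, TAIR10.1, chromosome 1).
GSTU24: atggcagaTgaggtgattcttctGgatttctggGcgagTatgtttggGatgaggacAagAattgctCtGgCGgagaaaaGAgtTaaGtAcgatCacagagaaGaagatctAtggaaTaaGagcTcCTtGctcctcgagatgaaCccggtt
GSTU25: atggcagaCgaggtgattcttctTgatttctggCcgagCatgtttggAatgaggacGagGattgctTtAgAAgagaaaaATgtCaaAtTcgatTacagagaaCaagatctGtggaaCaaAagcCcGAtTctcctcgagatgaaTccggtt

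GSTF6 and GSTF7 were closer to each other, with 94.3% identity, and 9.41% of the 50-base stretches of GSTF6 and 9.19% of those of GSTF7 also lay in the other transcript. Over 100 bases the shares were 1.56% and 1.53%. The first 150 aligned coding bases differed at 4 positions, in capitals (RefSeq, TAIR10.1, chromosome 1). Reads from this stretch that cover none of these positions cannot be assigned to one copy.
GSTF6: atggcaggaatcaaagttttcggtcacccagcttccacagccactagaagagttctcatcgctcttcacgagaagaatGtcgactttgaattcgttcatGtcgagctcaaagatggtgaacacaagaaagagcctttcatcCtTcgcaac
GSTF7: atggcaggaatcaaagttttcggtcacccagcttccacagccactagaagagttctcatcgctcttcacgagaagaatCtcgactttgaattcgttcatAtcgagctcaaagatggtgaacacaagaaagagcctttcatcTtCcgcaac

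GSTF2 on chromosome 4 and GSTF3 on chromosome 2 were 94.5% identical and shared 2.46% and 3.51% of their 50-base stretches. GSTU17 and GSTU18 overlap on the same strand and shared 1.98% and 2.27%. No other member shared a 50-base stretch with another member, and values of these 3 pairs are uncertain between the copies. GSTF8 and GSTU10 each overlap a gene of another family on the same strand, and GSTU2, GSTU6, GSTU7, GSTU10, GSTF2, GSTF10, GSTF11 and GSTF12 overlap genes on the other strand. The libraries were stranded, but whether counting used the strand is not given in the sources used here.

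In dark WT hypocotyls the family was carried by few genes. Per kilobase of transcript, GSTF10 (AT2G30870) stood at 604 ± 72.1 CPM and GSTU19 (AT1G78380) at 510 ± 28.5 CPM, which made 27.02% and 22.8% of the summed level of the 39 members. GSTF9 (AT2G30860) followed with 245 ± 72.9 CPM per kilobase and GSTF8 (AT2G47730) with 243 ± 37.4 CPM per kilobase (SD, n = 3 each), and these 2 did not differ beyond their spread. GSTF10 is known as the dehydration-responsive transcript ERD13, GSTU19 is a tau member with broad activity towards herbicides, and GSTF8 is a widely used marker of oxidative and defence signals. Members such as GSTU4, GSTU11, GSTU12, GSTF6 and GSTF7 were each below 1 CPM on average in the same libraries.

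The summed level of both classes went up with dose. In WT, phi members summed to 1096 ± 90.0 CPM per kilobase in the dark, 1310 ± 45.1 after 3000 µmol m-2 and 4351 ± 962 after 30000 µmol m-2 (SD, n = 3 each). Tau members summed to 1140 ± 75.5, 2429 ± 424 and 3753 ± 701 CPM per kilobase in the same order. The tau sum after the low dose lay above every dark value in all 3 genotypes except uvr8-6, where the lowest low-dose library had 1445 CPM per kilobase and the highest dark library 1475. In every genotype the lowest phi library after the high dose lay above the highest library of the other doses.

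**Figure D1:**
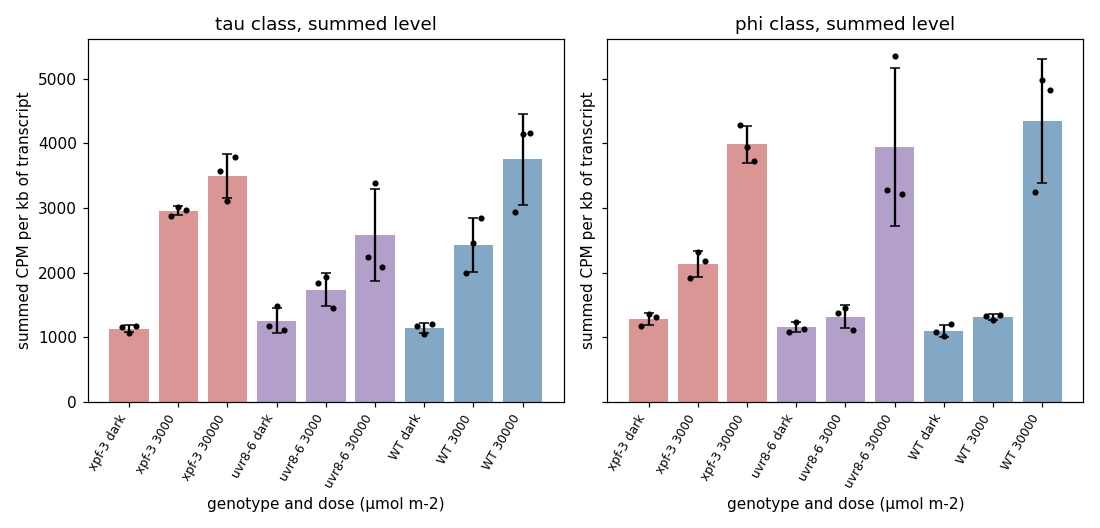
Summed level of the tau and of the phi members in CPM per kilobase of transcript in each of the 27 libraries, by dose and genotype, with bars for group means, error bars for the SD (n = 3) and points for libraries. In WT the phi sum averaged 1310 CPM per kilobase after 3000 µmol m-2 and 4351 after 30000 µmol m-2, and the tau sum 2429 and 3753.

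In WT, 14 of 33 members rose and 3 fell after 3000 µmol m-2 (edgeR quasi-likelihood test, adjusted p under 0.05). Over all 19794 loci 25.6% were called, 12.9% higher and 12.7% lower. After 30000 µmol m-2, 21 members rose and 4 fell, while 64.5% of all loci were called, 33.0% higher and 31.5% lower. The median log2 fold change was 0.66 over the members and 0.02 over all loci at the low dose, and 1.91 and 0.03 at the high dose. A rise of at least 4-fold was seen in 11 members at the low dose, against 2.46% of all loci, and in 15 at the high dose, against 7.95%. By class, 9 tau members rose and 3 fell after the low dose and 14 rose and 4 fell after the high dose, of 25 tested, and 5 and 7 of 8 phi members rose with none falling.

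**Figure D2:**
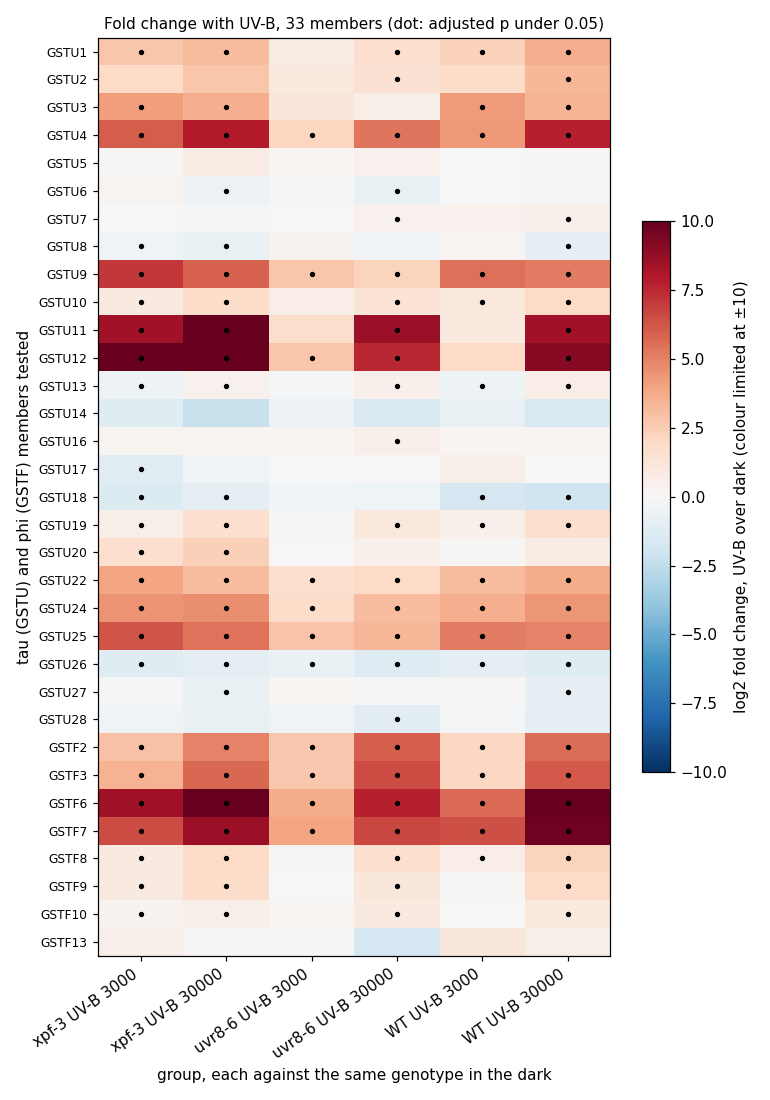
Log2 fold change of UV-B over dark as a colour from blue (lower) to red (higher) for the 33 tested members (rows) in each genotype at both doses (columns), with a dot where the adjusted p was under 0.05. In the WT high-dose column GSTF6 is at 10.12 and GSTU26 at -1.19, next to GSTU25 at 4.96.

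The tandem array of GSTU24 (AT1G17170), GSTU25 (AT1G17180) and GSTU26 (AT1G17190) on chromosome 1 held members that moved in opposite directions. GSTU24 and GSTU25 are tau enzymes known to act on the explosive trinitrotoluene. In WT, GSTU25 had 20.8, 17.8 and 23.8 CPM in the dark, 513, 757 and 882 CPM after the low dose and 535, 737 and 684 CPM after the high dose. No irradiated library overlapped a dark one, and the doses overlapped each other. The log2 fold change was 5.10 ± 0.31 at the low dose (SE, adjusted p = 8.06e-10) and 4.96 ± 0.31 at the high dose (adjusted p = 8.58e-11).

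GSTU24 in WT had 24.8, 21.6 and 32.7 CPM in the dark, 230, 325 and 403 CPM after the low dose and 415, 679 and 632 CPM after the high dose. Each high-dose library lay above each low-dose library, and the log2 fold changes over dark were 4.44 ± 0.26 at the high dose (adjusted p = 1.75e-11) and 3.60 ± 0.26 at the low dose (adjusted p = 3.66e-09). GSTU26, the third gene of the array, had 172, 146 and 190 CPM in the dark, 93.9, 86.6 and 75.2 CPM after the low dose and 75.7, 79.3 and 67.6 CPM after the high dose. Every irradiated library lay below every dark library. Its log2 fold change was -0.99 ± 0.16 at the low dose (adjusted p = 6.42e-05) and -1.19 ± 0.16 at the high dose (adjusted p = 7.6e-07), and it also fell at both doses in both mutants.

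The 250 bases before the annotated start of these 3 genes and of GSTU9 are shown because the array held opposite changes and GSTU9 had the smallest p in the tests between uvr8-6 and WT (RefSeq, TAIR10.1; GSTU24 at chr1:5869293-5869542, plus strand; GSTU25 at chr1:5871774-5872023, plus strand; GSTU26 at chr1:5875045-5875294, plus strand; GSTU9 at chr5:25089627-25089876, minus strand). Capitals mark TGACG on either strand, the core letters of elements bound by TGA factors.
GSTU24: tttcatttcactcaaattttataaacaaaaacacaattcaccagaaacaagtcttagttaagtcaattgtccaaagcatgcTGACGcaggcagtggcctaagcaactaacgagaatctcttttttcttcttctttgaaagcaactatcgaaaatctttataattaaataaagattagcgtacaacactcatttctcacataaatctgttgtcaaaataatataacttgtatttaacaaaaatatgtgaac
GSTU25: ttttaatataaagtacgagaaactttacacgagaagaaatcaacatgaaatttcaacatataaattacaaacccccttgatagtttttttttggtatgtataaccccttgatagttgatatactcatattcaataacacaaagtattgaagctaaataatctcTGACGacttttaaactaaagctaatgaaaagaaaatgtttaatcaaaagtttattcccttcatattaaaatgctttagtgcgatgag
GSTU26: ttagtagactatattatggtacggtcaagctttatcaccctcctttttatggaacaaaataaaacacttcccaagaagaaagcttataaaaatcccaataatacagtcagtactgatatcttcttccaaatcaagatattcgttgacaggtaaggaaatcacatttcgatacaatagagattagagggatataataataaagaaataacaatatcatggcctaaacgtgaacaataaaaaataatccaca
GSTU9: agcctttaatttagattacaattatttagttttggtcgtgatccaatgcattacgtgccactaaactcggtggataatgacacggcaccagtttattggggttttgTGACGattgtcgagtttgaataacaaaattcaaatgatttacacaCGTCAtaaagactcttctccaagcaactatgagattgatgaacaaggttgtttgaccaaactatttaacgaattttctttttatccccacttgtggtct

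The letters TGACG stood once in GSTU24, starting 169 bases before the start, once in GSTU25 at 87 bases, at 2 places in GSTU9 and at none in GSTU26. Over the family, 14 of 39 upstream windows of 250 bases (35.9%) held TGACG on either strand, against 18.6% of 27443 windows genome-wide. Among the 21 members that rose in WT after the high dose 11 held it. It was in 1 of the 4 that fell, 2 of the 8 that did not pass and none of the 6 that were not tested. The share of all loci with TGACG was not counted by call, and whether the motif goes with a rise was not tested. The longer TGACGTCA, which contains TGACG, was in 2.56% of member windows and 0.503% of all, CACGTG in 7.69% and 6.49%, TTGACC in 23.1% and 12.2%, TTGACT in 38.5% and 19.1%, and the mitochondrial dysfunction motif in 2.56% and 1.75%. The only member with TGACGTCA was GSTU7, named here after its sequence was seen. It had 47.1, 46.5 and 50.7 CPM after the high dose in WT against 27.9, 37.0 and 38.7 CPM in the dark. In xpf-3 it had 26.0, 28.3 and 22.5 CPM after the high dose against 33.8, 28.0 and 23.5 CPM in the dark. The uvr8-6 values were 35.5, 52.8 and 46.2 CPM against 33.1, 33.2 and 34.5 CPM.

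GSTU9 (AT5G62480) reached its WT level at the low dose. It had 2.43, 1.39 and 4.42 CPM in the dark, 95.1, 140 and 150 CPM after 3000 µmol m-2 and 86.4, 122 and 112 CPM after 30000 µmol m-2. The log2 fold change over dark was 5.50 ± 0.30 (adjusted p = 7.86e-12) at the low dose and 5.22 ± 0.30 (adjusted p = 1.88e-12) at the high dose. High over low came to -0.27 and did not pass.

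Other tau members were highest after the high dose. GSTU4 (AT2G29460) had 0.502, 0.757 and 1.24 CPM in the dark, 10.9, 22.4 and 17.5 CPM after the low dose and 106, 216 and 223 CPM after the high dose in WT, with log2 fold changes over dark of 4.34 ± 0.62 (adjusted p = 2.15e-06) and 7.75 ± 0.61 (adjusted p = 1.77e-11). GSTU12 (AT1G69920) had 4, 0 and 0 counts in the dark, 2, 11 and 3 counts after the low dose and 52.4, 98.4 and 78.5 CPM after the high dose. GSTU11 (AT1G69930), its neighbour on chromosome 1, had 0, 2 and 1 counts in the dark, 2 counts in each low-dose library and 24.1, 44.6 and 39.4 CPM after the high dose. For GSTU11 the high dose over dark was a ratio of 370, with a 95% counting interval of 126 to 1800, and the low dose over dark 2.07 (0.443 to 12.8), which covers no change; both intervals cover counting error only. The 3 dose groups of GSTU4 did not overlap, whereas GSTU11 and GSTU12 stayed near the floor until the high dose in WT.

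The phi pairs GSTF6 with GSTF7 and GSTF2 with GSTF3 were low in the dark and highest after the high dose in WT. GSTF6 (AT1G02930), which supplies glutathione conjugation in camalexin synthesis, had 0.502, 1.26 and 0.531 CPM in the dark, 22.4, 47.4 and 40.8 CPM after the low dose and 464, 944 and 1009 CPM after the high dose in WT. Its log2 fold change was 5.68 ± 0.83 at the low dose (adjusted p = 1.83e-06) and 10.12 ± 0.82 at the high dose (adjusted p = 4.63e-11). GSTF7 (AT1G02920) had 0.0836, 0.505 and 0.619 CPM in the dark, 16.7, 42.7 and 42.8 CPM after the low dose and 165, 388 and 439 CPM after the high dose. Since GSTF6 and GSTF7 share reads, their counts were also summed, which gave 6.00 at the low dose and 9.99 at the high dose on the log2 scale.

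GSTF2 (AT4G02520), a phi protein known to bind flavonoids and indole compounds, had 1.25, 3.79 and 2.74 CPM in the dark, 5.53, 9.44 and 15.2 CPM after the low dose and 65.9, 130 and 159 CPM after the high dose. Its log2 fold changes over dark were 2.04 ± 0.49 (adjusted p = 0.00279) and 5.57 ± 0.46 (adjusted p = 8.19e-10). GSTF3 (AT2G02930), its near copy on another chromosome, had 0, 1.51 and 0.884 CPM in the dark, 2.63, 2.65 and 3.68 CPM after the low dose and 29.5, 57.5 and 62.9 CPM after the high dose. Replicate 1 was the lowest of the 3 WT high-dose libraries for GSTU4, GSTU12, GSTF2, GSTF3, GSTF6 and GSTF7, and the members made up 0.784% of its counts, against 1.13% in each of the other 2. In uvr8-6 after the high dose, replicate 2 was the highest for these genes, with 1.14% of its counts on members against 0.717% and 0.72%.

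**Figure D3:**
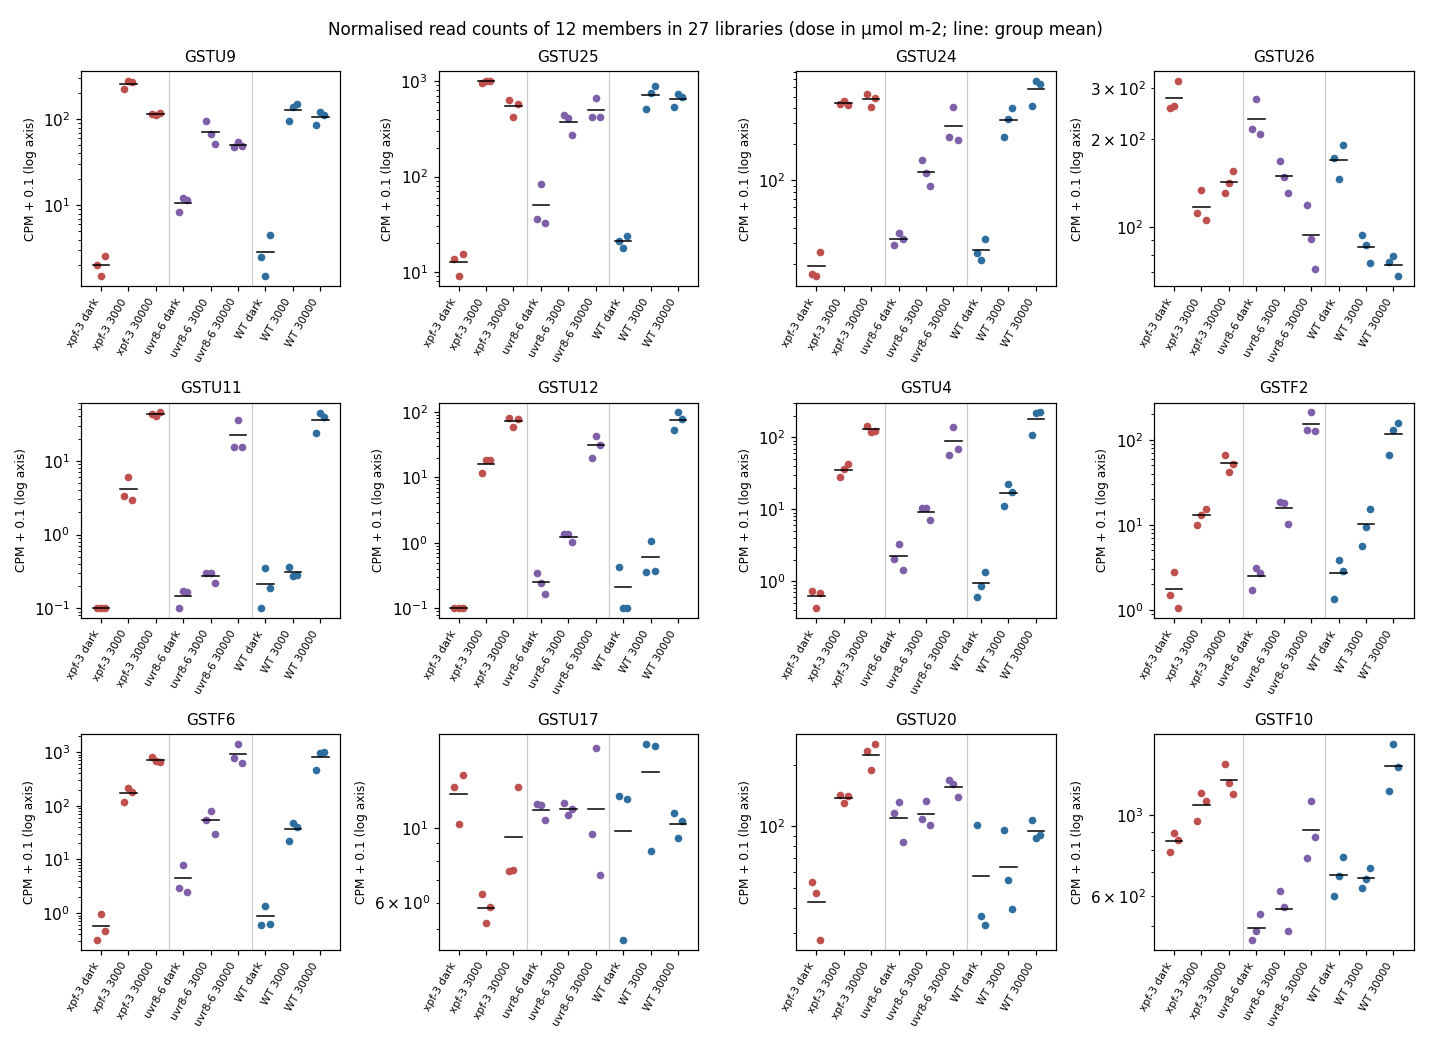
CPM of 12 members in all 27 libraries on a log axis, by dose and genotype, after adding 0.1, with a point per library and a line for the group mean. The WT points of GSTU9 and of GSTU25 overlap between the doses, whereas those of GSTF6 lie at 22.4 to 47.4 CPM at the low dose and at 464 to 1009 CPM at the high dose.

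The abundant members GSTU19, GSTF8, GSTF9 and GSTF10 had smaller fold changes in WT than these 2 phi pairs. GSTU19 had 537, 576 and 600 CPM in the dark, 679, 816 and 965 CPM after the low dose and 1328, 1871 and 2026 CPM after the high dose in WT, a log2 fold change of 0.52 ± 0.17 (adjusted p = 0.0267) and 1.61 ± 0.17 (adjusted p = 3.1e-08). The low-dose call of GSTU19 was lost without any of 5 of the 6 libraries, with values of 0.39 to 0.56. GSTF8 had 375, 399 and 498 CPM in the dark, 600, 649 and 759 CPM after the low dose and 1561, 2178 and 2312 CPM after the high dose, and its call at the low dose (0.66 ± 0.20, adjusted p = 0.0172) was lost without dark replicate 1 or 2 or low-dose replicate 3, with values of 0.56 to 0.61. GSTF9 and GSTF10 did not pass at the low dose, with log2 fold changes of 0.11 and -0.03, and reached 1.91 ± 0.22 (adjusted p = 1.08e-07) and 0.99 ± 0.13 (adjusted p = 1.13e-06) at the high dose.

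GSTU20 (AT1G78370), a tau member known to bind the jasmonate-conjugating enzyme FIN219 in light signalling, did not pass in WT. Its WT libraries had 101, 36.2 and 32.6 CPM in the dark, 95.7, 54.7 and 39.4 CPM after the low dose and 107, 87.9 and 90.8 CPM after the high dose. Replicate 1 stood apart in the dark, and without it both doses passed, with log2 fold changes of 0.87 (adjusted p = 0.0237) and 1.47 (adjusted p = 0.000163). With the replicate number as a block the high dose passed at 0.83 (adjusted p = 0.0163). It also passed with a block within each genotype at 0.93 (adjusted p = 0.00226) and with DESeq2 at 0.74 (adjusted p = 0.0475). GSTF12 (AT5G17220, TT19), required for anthocyanin deposition in the vacuole, had at most 4 counts in a library and 25 in all, so no difference could be detected at this depth.

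Members outside the naming rule are given here after their values were seen. GSTU22, in the array of GSTU19 and GSTU20, had 33.3, 62.2 and 68.3 CPM after the low dose and 58.7, 87.2 and 92.1 CPM after the high dose in WT, against 3.93, 8.20 and 6.72 CPM in the dark, and it rose in all 6 comparisons of UV-B with dark. GSTU10 rose by 1.06 and 2.00 on the log2 scale at the low and high dose in WT, and GSTU3 by 4.25 and 3.38 from levels under 1 CPM. GSTU5, GSTU14 and GSTF13 passed in none of the 6 comparisons of UV-B with dark, and GSTU5 in WT had 56.9 to 156 CPM in the dark and 109 to 127 CPM after the high dose.

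Few members fell. GSTU18 (AT1G10360) had 1.58, 2.12 and 2.15 CPM after the low dose and 2.32, 1.45 and 1.04 CPM after the high dose, against 5.35, 6.94 and 6.90 CPM in WT dark. Its log2 fold changes were -1.69 ± 0.39 (adjusted p = 0.00243) and -1.99 ± 0.43 (adjusted p = 0.00023); it overlaps GSTU17, which did not pass in WT, and with both counted together neither dose passed, at 0.02 and -0.45 (adjusted p = 0.968 and 0.0981). GSTU13 (AT1G27130), known from indole glucosinolate metabolism, went opposite ways at the 2 doses: 76.5, 68.9 and 77.7 CPM after the low dose and 140, 193 and 188 CPM after the high dose, against 98.2, 113 and 109 CPM in the dark. The log2 fold changes were -0.52 ± 0.13 (adjusted p = 0.00467) and 0.70 ± 0.13 (adjusted p = 5.68e-05). After the high dose GSTU8 (AT3G09270; -0.78 ± 0.19, adjusted p = 0.000968) and GSTU27 (AT3G43800; -0.85 ± 0.17, adjusted p = 0.000167) also fell. Both passed as lower after the high dose in xpf-3 as well.

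Between the doses in WT, 15 members were higher and 2 lower after 30000 than after 3000 µmol m-2, where 46.4% of all loci were called (22.9% higher, 23.5% lower), and the median log2 fold change was 0.60 over members and 0.01 over all loci. Of the phi members 7 of 8 were higher at the high dose, and of the tau members 8 of 25 were higher and 2 lower. GSTF6 was 4.44 and GSTU4 3.41 higher on the log2 scale at the high dose. GSTU8 (-1.06 ± 0.19, adjusted p = 8.14e-05) and GSTU27 (-0.99 ± 0.17, adjusted p = 5.71e-05) were lower. GSTU9 and GSTU25, at -0.27 and -0.14, were among the 16 members that did not pass.

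In xpf-3 most members responded to both doses. After 3000 µmol m-2, 19 members rose and 5 fell, while 67.3% of all loci were called (33.4% higher, 33.9% lower), and after 30000 µmol m-2, 20 rose and 5 fell, with 73.3% of all loci called (37.8% higher, 35.5% lower). The shares of members called, 72.7% and 75.8%, were near those of all loci, and the members' median log2 fold change was 0.87 and 1.85 against -0.01 and 0.03 over all loci. With the 2 members without dark counts set at their bound, the medians were again 0.87 and 1.85. In the dark, no member differed between xpf-3 and WT, with 0.167% of all loci called (0.106% higher, 0.0606% lower). Of the members, 4 had an unadjusted p under 0.05, and DESeq2 called 1. GSTU26 was nearest to the threshold, at 0.71 ± 0.16 on the log2 scale (adjusted p = 0.0574), and is named here after its value was seen.

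GSTU11 and GSTU12 were at 0 counts in all 3 xpf-3 dark libraries and were already up after the low dose. GSTU12 had 11.8, 18.2 and 18.6 CPM after the low dose and 81.9, 58.2 and 77.2 CPM after the high dose in xpf-3, which is at least 146-fold and 636-fold higher than dark against a floor of 3 counts over the group. GSTU11 had 3.18, 5.98 and 2.86 CPM after the low dose and 43.6, 40.7 and 45.3 CPM after the high dose, at least 35.2-fold and 389-fold higher. All low-dose values of both genes in xpf-3 lay above every low-dose value in WT, and the low-dose response differed between xpf-3 and WT in the test for both (adjusted p = 0.034 for GSTU11, named for this test after its value was seen, and 0.0191 for GSTU12). Without WT dark replicate 1, which held the 4 dark counts of GSTU12, that gene's difference no longer passed (adjusted p = 1).

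In the tests of the difference between the xpf-3 and the WT response, 5 members were higher and 2 lower at the low dose, with 29.6% of all loci called (11.8% higher, 17.8% lower). At the high dose 1 member was higher, with 9.34% of all loci called (5.21% higher, 4.13% lower). GSTU9 had 227, 282 and 268 CPM after the low dose in xpf-3 against 95.1, 140 and 150 CPM in WT, with 1.92, 1.39 and 2.48 CPM in xpf-3 dark. Its response at the low dose was 1.57 ± 0.45 larger on the log2 scale (adjusted p = 0.0125), and 1.05 without WT dark replicate 3 (adjusted p = 0.0897). GSTU25 had 963, 1011 and 1003 CPM in xpf-3 after the low dose against 513, 757 and 882 CPM in WT, with no overlap, and its response was 1.20 ± 0.44 larger (adjusted p = 0.0455), a call that was lost without WT dark replicate 1 or 3, WT low-dose replicate 1, xpf-3 dark replicate 1 or 2 or any xpf-3 low-dose library, with values of 1.0015 to 1.26. It was also lost with no filter on low counts (1.27, adjusted p = 0.0536). The sum of GSTU24, GSTU25 and GSTU26 differed by -0.05 (adjusted p = 0.927). In the dark GSTU26 held most counts of that sum, which cannot decide on GSTU25 alone. GSTU17 (AT1G10370), known as a tau member that acts in light and abscisic acid signalling, had 6.26, 5.12 and 5.72 CPM after the low dose in xpf-3 against 17.6, 8.47 and 17.5 CPM in WT, a difference of -1.68 ± 0.47 (adjusted p = 0.011), and -1.42 without WT low-dose replicate 3 (adjusted p = 0.052).

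GSTU20 passed at either dose. It had 142, 130 and 140 CPM after the low dose and 232, 188 and 252 CPM after the high dose in xpf-3, against 53.4, 46.8 and 27.6 CPM in xpf-3 dark. The responses were larger than in WT by 1.54 ± 0.48 (adjusted p = 0.0213) and 1.65 ± 0.48 (adjusted p = 0.0363). Without the WT dark library that stood apart they came to 0.81 and 0.92 and did not pass. The low-dose call was also lost without WT low-dose replicate 3 (1.40) or xpf-3 dark replicate 3 (1.35). The high-dose call was also lost without WT high-dose replicate 2 or 3, xpf-3 dark replicate 2 or 3 or any xpf-3 high-dose library, at 1.40 to 1.78. Both calls were lost in fits of the compared groups only (adjusted p = 0.0764 and 0.0894), and the high-dose call with no filter on low counts (adjusted p = 0.065). The sum of the array, in which GSTU19 held most counts, differed by 0.28 and 0.20 and did not pass. That sum cannot decide on GSTU20 alone, which shared no 50-base stretch with another member. GSTU8, named here after its value was seen, differed by -0.74 ± 0.26 in its low-dose response (adjusted p = 0.0384). GSTF6 differed by 2.77 ± 1.31 at the low dose and did not pass (adjusted p = 0.11), but passed with DESeq2 (2.89, adjusted p = 0.00481) and with the replicate block (2.85, adjusted p = 0.0409).

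Some members were lower after the high than after the low dose in xpf-3. GSTU9 had 115, 111 and 120 CPM after the high dose against 227, 282 and 268 CPM after the low dose, a log2 fold change of -1.17 ± 0.22 (adjusted p = 0.000764). GSTU25 likewise had 637, 416 and 572 CPM against 963, 1011 and 1003 CPM (-0.87 ± 0.29, adjusted p = 0.0399). That call was lost without any xpf-3 low-dose library or without high-dose replicate 2 or 3, at -0.79 to -0.99 (adjusted p = 0.0598 to 0.113). The sum of the array, which is another quantity, came to -0.42 (adjusted p = 0.158). GSTF6 had 803, 682 and 666 CPM after the high dose against 118, 215 and 182 CPM after the low dose, a rise of 2.06 ± 0.39 (adjusted p = 0.00141). In all, 12 members were higher and 4 lower at the high than at the low dose in xpf-3, with 19.5% of all loci called (10.5% higher, 9.0% lower). Whether these steps differ from those in WT was not tested.

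In uvr8-6 the low dose raised 10 members and lowered 1, GSTU26, where 5.51% of all loci were called, 2.63% higher and 2.88% lower. The median log2 fold change was 0.21 over members and 0.02 over all loci, and 8 members rose at least 4-fold, as did 0.965% of all loci. The high dose raised 21 members and lowered 3, with 57.7% of all loci called (32.2% higher, 25.4% lower) and medians of 1.06 and 0.09. High against low dose gave 16 higher and 3 lower, with 40.8% called (22.3% higher, 18.5% lower). The phi members GSTF2, GSTF3, GSTF6 and GSTF7 rose at the low dose in uvr8-6, by 2.69, 2.70, 3.68 and 3.94 on the log2 scale, though GSTF3 failed without uvr8-6 dark replicate 3 (2.37, adjusted p = 0.0635). GSTU12 had 4, 2 and 1 counts in uvr8-6 dark, 1.275, 1.254 and 0.914 CPM after the low dose and 19.6, 43.0 and 31.4 CPM after the high dose. Its low-dose call was lost without any dark library or low-dose replicate 1 or 2 (adjusted p = 0.0574 to 0.172). GSTU11 had 3, 3 and 2 counts after the low dose and 15.2, 36.1 and 15.2 CPM after the high dose. GSTU26 at -0.65 failed without uvr8-6 dark replicate 2 or low-dose replicate 2 or 3, at -0.51 to -0.64, and in a fit of the compared groups only (adjusted p = 0.0501). The members that fell at the high dose were GSTU26, GSTU28 and GSTU6. GSTU28 (AT1G53680) had 1.41, 3.85 and 1.74 CPM after the high dose against 4.07, 7.62 and 3.61 CPM in uvr8-6 dark. Its call was lost without dark replicate 2 or high-dose replicate 1 or 3 (-0.73 to -0.998, adjusted p = 0.136 to 0.24). GSTU6 (AT2G29440) had 20.8, 23.5 and 22.6 CPM after the high dose against 36.9, 51.6 and 24.5 CPM in uvr8-6 dark.

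GSTU9 was lower after irradiation in uvr8-6 than in WT. It had 94.3, 68.2 and 51.4 CPM after the low dose and 47.0, 54.8 and 48.2 CPM after the high dose in uvr8-6, against 8.27, 11.9 and 11.3 CPM in uvr8-6 dark. Each dark library of uvr8-6 lay above each of WT, and each irradiated library below each of WT at the same dose. The response differed from that of WT by -2.73 ± 0.38 at the low dose (adjusted p = 0.000537) and by -2.97 ± 0.38 at the high dose (adjusted p = 7.25e-05).

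In the tests of the difference between the uvr8-6 and the WT response, no member was higher and 3 were lower at the low dose, GSTU9, GSTU24 and GSTU25, where 0.788% of all loci were called (0.258% higher, 0.530% lower). At the high dose 5 were lower and none higher, these 3 with GSTU1 and GSTU4, where 8.21% of all loci were called (4.48% higher, 3.73% lower). With a replicate block within each genotype, 7 members passed at the low dose, and at the high dose 10 were lower and 3 higher. GSTF6 differed by -2.002 ± 0.95 at the low dose (adjusted p = 0.541) and -2.35 ± 0.94 at the high dose (adjusted p = 0.0996), and passed with that block (-1.91 and -2.24, adjusted p = 0.0429 and 0.00357). At the high dose GSTF8 (-0.61, adjusted p = 0.0199) and GSTU19 (-0.56, adjusted p = 0.0327) also passed with it. The high-dose difference of GSTF6 also passed with DESeq2 (-2.41, adjusted p = 0.0221) and with the plain replicate block (-2.30, adjusted p = 0.0381). Summed with GSTF7 it passed at the high dose (-2.65, adjusted p = 0.0418) and not at the low dose (-2.19, adjusted p = 0.353). GSTU25 had 438, 411 and 273 CPM after the low dose and 422, 670 and 415 CPM after the high dose in uvr8-6, against 35.9, 83.8 and 32.3 CPM in uvr8-6 dark. In WT it had 20.8, 17.8 and 23.8 CPM in the dark. The WT values were 513, 757 and 882 CPM after the low dose and 535, 737 and 684 CPM after the high dose. Each uvr8-6 dark library lay above each of WT, and the high-dose libraries of the 2 genotypes overlapped. The response differences of GSTU25, which take in this higher dark level, were -2.22 ± 0.42 (adjusted p = 0.0126) and -1.65 ± 0.42 (adjusted p = 0.0196). The low-dose call was lost without WT dark replicate 2 (-2.12, adjusted p = 0.0555), and the high-dose call without it, without uvr8-6 dark replicate 2 or without uvr8-6 high-dose replicate 1, with values of -1.55, -1.08 and -1.54. Both calls were also lost when only the compared groups were fitted (-2.20, adjusted p = 0.106, and -1.68, adjusted p = 0.0687).

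GSTU24 had 148, 115 and 90.0 CPM after the low dose and 229, 407 and 218 CPM after the high dose in uvr8-6, against 29.1, 36.5 and 32.4 CPM in uvr8-6 dark. All low-dose libraries of uvr8-6 lay below all low-dose libraries of WT, and the differences in response were -1.75 ± 0.36 (adjusted p = 0.0208) and -1.32 ± 0.36 (adjusted p = 0.0247). The low-dose call was lost without uvr8-6 dark replicate 2, uvr8-6 low-dose replicate 3, WT dark replicate 2 or WT low-dose replicate 3, at -1.57 to -1.66. The high-dose call was lost without uvr8-6 dark replicate 2, uvr8-6 high-dose replicate 1 or 3, WT dark replicate 2 or WT high-dose replicate 2 or 3, at -1.17 to -1.25. Fits of the compared groups only lost both (adjusted p = 0.0554 and 0.0659). GSTU1 (AT2G29490) had 54.5, 93.1 and 53.5 CPM after the high dose in uvr8-6 against 66.1, 106 and 110 CPM in WT, with 14.1, 27.9 and 19.2 CPM in uvr8-6 dark against 5.85, 7.32 and 9.82 CPM in WT dark, and its difference was -1.90 ± 0.43 (adjusted p = 0.00995). The sum of its array, in which GSTU5 held more counts than GSTU1, differed by -0.49 (adjusted p = 0.462) and cannot decide on GSTU1 alone. GSTU4 had 57.3, 140 and 67.8 CPM after the high dose and 1.91, 3.16 and 1.35 CPM in the dark in uvr8-6, a difference of -2.37 ± 0.73 (adjusted p = 0.0365), named for this test after its value was seen.

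**Figure D4:**
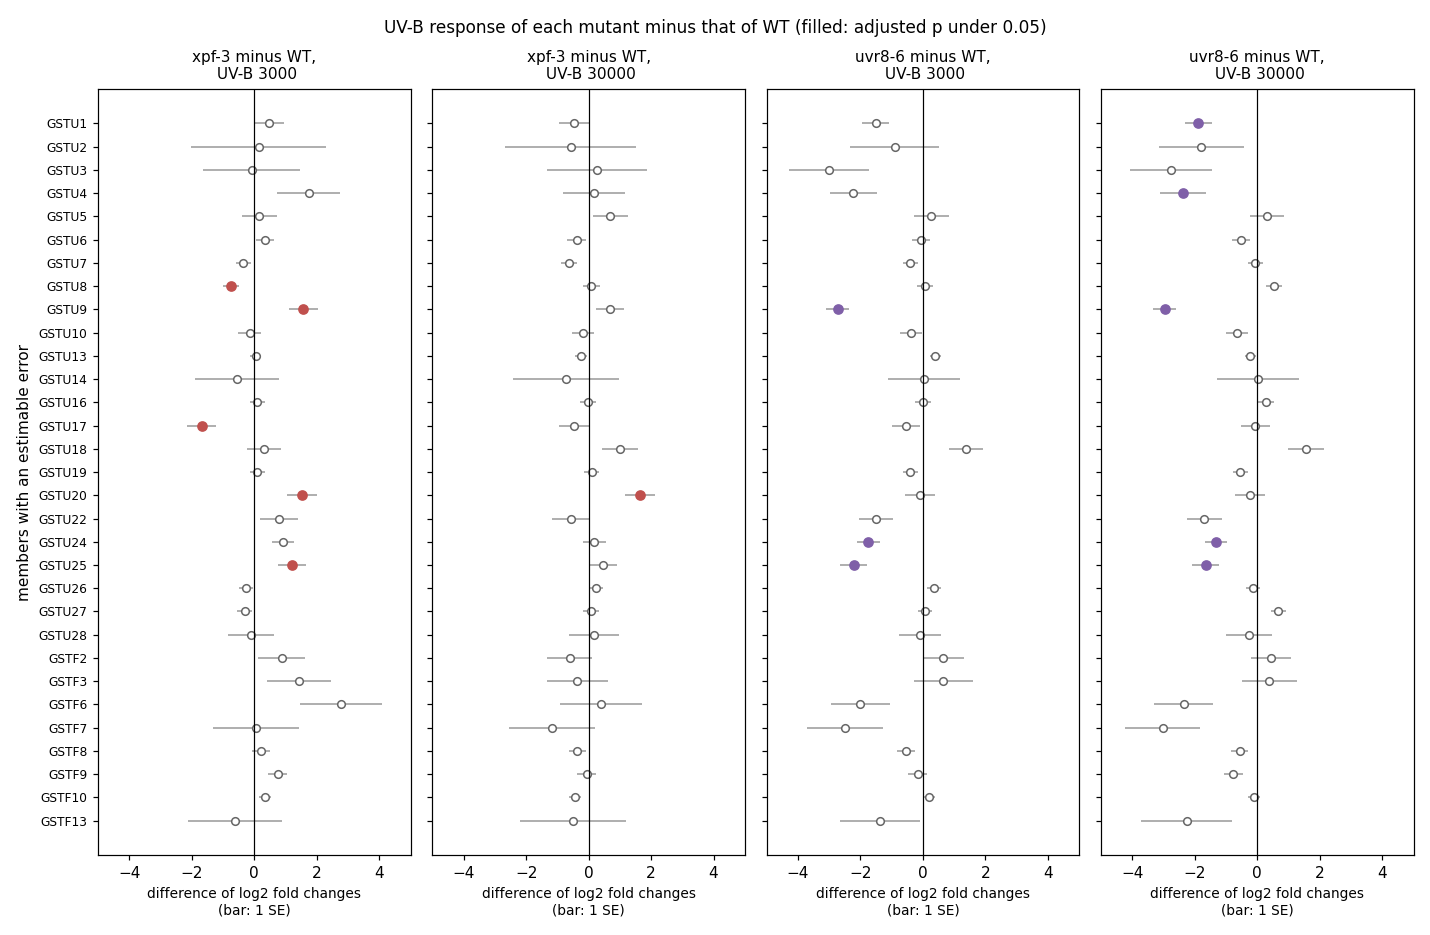
Difference of the UV-B response of each mutant from that of WT on the log2 scale for the tested members other than GSTU11 and GSTU12 (rows) at both doses (panels), with filled symbols where the adjusted p was under 0.05 and bars of 1 SE. In uvr8-6, GSTU9 lies at -2.73 and -2.97, and in xpf-3 it lies at 1.57 at the low dose.

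Levels also differed before irradiation. In the dark, 10 members were higher and 2 lower in uvr8-6 than in WT, with 31.4% of all loci called (14.2% higher, 17.2% lower) and medians of 0.36 over members and 0.02 over all loci. GSTF6 had 2.84, 7.84 and 2.38 CPM in uvr8-6 dark against 0.502, 1.26 and 0.531 CPM in WT dark (2.57 ± 0.85, adjusted p = 0.0139), and GSTF7 had 4.50, 5.32 and 1.93 CPM against 0.0836, 0.505 and 0.619 CPM (3.30 ± 1.14, adjusted p = 0.00955). The groups did not overlap for either gene. GSTU16 (AT1G59700), a tau member, had 9.13, 7.69 and 13.1 CPM in uvr8-6 dark against 18.3, 21.3 and 25.6 CPM in WT dark (-1.12 ± 0.18, adjusted p = 0.000196), and GSTF10 was lower as well (-0.47 ± 0.14, adjusted p = 0.0111). The count of 12 members fell to 5 without uvr8-6 dark replicate 2 and to 7 without WT dark replicate 3, and GSTF6 failed in both (1.86 and 2.38) and without WT dark replicate 1 (2.33). GSTF10 failed without uvr8-6 dark replicate 1 (-0.42) or WT dark replicate 3 (-0.38), and in a fit of the compared groups only (-0.41, adjusted p = 0.0622). Its sum with GSTF9, with which it shared no 50-base stretch, came to -0.01 and is another quantity.

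Around the conjugation step, other genes of the pathway were counted from fixed lists. In WT after the high dose, 8 of 12 genes of the other glutathione transferase classes rose and 2 fell, 5 of 7 for glutathione synthesis and recycling rose and 1 fell, and 9 of 12 for sulfate assimilation and cysteine synthesis rose and 3 fell. After the low dose these counts were 2 and 1, 2 and 1, and 6 and 2. Over all loci 33.0% were higher and 31.5% lower at the high dose, and 12.9% and 12.7% at the low dose. SIR, the sulfite reductase, rose by 1.82 ± 0.11 (adjusted p = 3.02e-12), ATPS1, an ATP sulfurylase, by 2.77 ± 0.16 (adjusted p = 6.46e-12) and SERAT2;1, a serine acetyltransferase, by 3.05 ± 0.22 (adjusted p = 2.1e-10) at the high dose. GSH2, the glutathione synthetase, rose by 1.60 ± 0.12 (adjusted p = 1.47e-10) at the high dose and did not pass at the low dose (adjusted p = 0.989).

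The vacuolar conjugate transporter ABCC3 rose at both doses in all 3 genotypes. Its log2 fold changes at the low and the high dose were 6.43 and 6.19 in xpf-3, 2.71 and 3.80 in uvr8-6 and 5.19 and 6.22 in WT, each with an SE of 0.21 to 0.22. Of the other 3 ABCC genes, all fell after the low dose and 1 after the high dose in xpf-3, 1 fell after the high dose in uvr8-6, and 2 rose after the high dose in WT, with no other call. In the dark, 1 of the 4 was higher and 3 were lower in uvr8-6 than in WT. Among 12 TGA, GRAS and NAC regulators, 5 rose and 4 fell in WT after the high dose, and none rose and 1 fell after the low dose; the 75% called at the high dose compares with 64.5% of all loci. NPR1, the salicylic acid coreceptor, rose by 1.14 ± 0.12 (adjusted p = 1.6e-08) and GRX480, a glutaredoxin that binds TGA factors, by 4.17 ± 0.56 (adjusted p = 3.33e-07). TGA1, a TGA factor, fell by 2.11 ± 0.19 on the log2 scale (adjusted p = 1.34e-09) at the high dose in WT and was not called at the low dose.

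In xpf-3 the same lists gave 8 higher and 1 lower of the 12 other transferases at the low dose and 8 and 3 at the high dose, for glutathione synthesis and recycling 3 and 2, then 5 and 1 of 7, for sulfate assimilation 8 and 3 at both doses, and for the regulators 1 and 5, then 2 and 6. Of all loci, 67.3% and 73.3% were called in these comparisons. In uvr8-6 no sulfate assimilation gene of 12 passed at the low dose, and 8 rose and 3 fell at the high dose, where 5.51% and 57.7% of all loci were called. The other transferases gave 1 and 0, then 7 and 1, glutathione synthesis and recycling 1 and 0, then 5 and 0, and the regulators no call, then 4 and 1. TGA1 fell by 2.36 at the low dose and by 1.76 at the high dose in xpf-3, and by 1.86 at the high dose in uvr8-6, where it was at 0.02 at the low dose.

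Tissue markers and organelle reads moved with dose. Against dark, 33.4% of all loci were higher and 33.9% lower in xpf-3 at the low dose, and 37.8% and 35.5% at the high dose. In uvr8-6 these shares were 2.63% and 2.88%, then 32.2% and 25.4%, and in WT 12.9% and 12.7%, then 33.0% and 31.5%. Between uvr8-6 and WT in the dark, 14.2% were higher and 17.2% lower in uvr8-6. In WT the 10 root markers summed to 880 to 1210 CPM in the dark, 157 to 235 CPM after the low dose and 80.2 to 97.2 CPM after the high dose; 5 of the 10 fell at the low dose and 9 at the high dose. None of the 10 was at 0 CPM in any library. In the same order, the sums were 1030 to 1270, 111 to 165 and 85.8 to 173 CPM in xpf-3 and 396 to 733, 253 to 368 and 49.7 to 75.2 CPM in uvr8-6. The root markers were split in the dark. EXPA7, EXPA18 and LRL3 averaged 39.3, 37.8 and 10.7 CPM in uvr8-6 dark against 14.5, 11.7 and 8.16 CPM in WT dark. CASP1 to CASP5, GL2 and SHR had lower means in uvr8-6 dark. The 6 markers of etiolated seedlings summed to 4660 to 5070, 2760 to 3550 and 4490 to 4970 CPM in xpf-3, 2780 to 4010, 2240 to 3640 and 2510 to 4090 CPM in uvr8-6, and 4100 to 4660, 2230 to 3200 and 2120 to 2270 CPM in WT, from dark to high dose. In WT 3 were lower at each dose, and in xpf-3 2 were higher and 3 lower at the low dose and 2 higher and 4 lower at the high dose. The 8 seed markers summed to 10.7 to 73.2 CPM in uvr8-6 dark against 2.02 to 9.28 CPM in WT dark, with 4 higher. OLEO2, EM6, EM1 and OLEO1 averaged 21.1, 10, 8.4 and 1.6 CPM in uvr8-6 dark against 0.879, 0.168, 0.886 and 0.301 CPM in WT dark. CRC, SESA1, SESA2 and CRA1 had lower means there, at 0.391, 0.134, 0.0866 and 0.157 CPM against 1.83, 0.154, 0.46 and 0.478 CPM. SESA1, SESA2, CRA1, OLEO1, EM6 and EM1 were at 0 in at least 1 library. The 8 markers of shoot apex and stomata summed to 1.89 to 3.21 CPM in the dark, 9.27 to 11.1 CPM after the low dose and 18.0 to 24.4 CPM after the high dose in xpf-3, where 6 and 7 of the 7 tested rose. The same sums were 17.0 to 27.1, 18.7 to 23.5 and 34.3 to 42.2 CPM in uvr8-6, with none and 4 higher, and 3.91 to 16.0, 5.29 to 11.5 and 8.56 to 16.2 CPM in WT, with 1 lower at the low and 1 higher at the high dose. Counts on rRNA loci made 0.0166% to 0.0218%, 0.0496% to 0.0766% and 0.304% to 0.406% in xpf-3, 0.0249% to 0.0878%, 0.0371% to 0.0525% and 0.0933% to 0.282% in uvr8-6, and 0.0072% to 0.00789%, 0.0308% to 0.0382% and 0.362% to 0.468% in WT, from dark to high dose. Counts on organelle genomes made 0.153% to 0.249% after the high dose in WT against 0.0197% to 0.023% in WT dark, and 0.641% in xpf-3 low-dose replicate 1. The part of these shifts in the values of the family was not tested.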

How the data were processed

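RNA of 27 libraries was read from stranded TruSeq libraries, per the labels' protocols. The authors deposited raw counts per locus, and a table of the same counts divided by a scaling factor per library (signal, used as an added check only; multiplied back, it differed from the counts by at most 7.86e-10). FastQC, Trimmomatic, HISAT2 and DESeq2 are named in the submitters' processing notes; no source used here names the read counter, its strand setting or the genome build. Counts were tested with edgeR 4.0.16 in R 4.3.3 (quasi-likelihood test, trimmed-mean scaling, filterByExpr by group, 9 group means, 18 residual degrees of freedom). Benjamini-Hochberg adjustment ran over 19794 loci in each of 15 comparisons, with a threshold of 0.05. SEs are Wald errors, and plain fold changes are on the log2 scale with edgeR's shrinkage for low counts. The authors' 18 columns of group means and standard errors were not used. The code was tested on simulated data. Where a group had no counts, folds are bounds against a floor of 3 counts over the group, and ratios of 1 to 3 counts carry 95% counting intervals. Depth limits members under about 1 CPM. Lengths, coding sequences and upstream windows came from RefSeq, TAIR10.1, by locus, and all 39 members matched.

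Alternatives were DESeq2 1.42.0, DESeq2 size factors, the authors' factors, no low-count filter, fits of the compared groups only, replicate blocks, near copies summed, and each library left out. The replicate numbers were taken to pair libraries where every same-numbered correlation of deviations is over 0.1, which held for the low dose against dark in WT (0.384, 0.133 and 0.227) and for all 3 dose comparisons in uvr8-6 (lowest 0.177, 0.156 and 0.215). The highest correlation between different numbers was 0.285 in WT and 0.196, 0.173 and 0.0768 in uvr8-6. Among these, every same-numbered value lay above it only for the high against the low dose in uvr8-6. In these comparisons the block left each count of members within 1.5 times. In each comparison of UV-B with dark, members that passed with mean log2 CPM of at least 1 were selected for the 6 largest increases and 4 largest decreases. Not every selected gene is given with its values in each comparison. In response differences the 4 smallest p were named, and in the other comparisons the 2 largest changes each way. GSTU24, GSTU25, GSTU19, GSTU20, GSTF2, GSTF6, GSTF8, GSTF12 and the 4 highest members per length in dark WT were always named. Members and lists were chosen with earlier results of these data known.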

Additional observations from a re-analysis of the deposited data

Results flagged for a closer look

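Responses to UV-B that differed between a mutant and WT in the test of the difference (edgeR quasi-likelihood test, adjusted p under 0.05) are gathered here as values. Of 33 members, 7 differed between xpf-3 and WT at the low dose and 1 at the high dose, and 3 differed between uvr8-6 and WT at the low dose and 5 at the high dose. The shares of all loci called in these 4 tests were 29.6%, 9.34%, 0.788% and 8.21%, so that the 21.2% of members for xpf-3 at the low dose lay below the share of all loci.

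In xpf-3 at the low dose the difference from WT on the log2 scale was 1.57 for GSTU9, 1.20 for GSTU25, 1.54 for GSTU20, -1.68 for GSTU17 and -0.74 for GSTU8. For GSTU11 it was 7.46 and for GSTU12 8.51, both of which depend on the prior count because xpf-3 dark held no counts of either gene, so their counts and bounds are the better description. At the high dose GSTU20 stood at 1.65. In uvr8-6 the low-dose differences were -2.73 for GSTU9, -2.22 for GSTU25 and -1.75 for GSTU24, and the high-dose differences were -2.97 for GSTU9, -2.37 for GSTU4, -1.90 for GSTU1, -1.65 for GSTU25 and -1.32 for GSTU24. These differences also take in the dark levels. For GSTU9, GSTU4, GSTU1 and GSTU25 each dark library of uvr8-6 lay above each of WT, and for GSTU24 the dark libraries overlapped. The uvr8-6 libraries came from a later sequencing run than all others, and run and genotype cannot be told apart.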

How the results depend on the processing

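Counts of members called in UV-B against dark, and in the high against the low dose, stayed within 1.5 times under the alternatives that were run; leaving out 1 library gave 22 to 25 and 24 to 27 (xpf-3, low and high dose), 8 to 10 and 20 to 24 (uvr8-6), and 14 to 18 and 24 to 25 (WT). The other comparisons moved. For uvr8-6 against WT in the dark (12), fitting the compared groups only gave 6, and leaving out 1 library 5 to 13. For the uvr8-6 response difference at the low dose (3) the compared groups only gave 1, DESeq2 5, a replicate block within each genotype 7, and 1 library left out 1 to 3. At the high dose (5) these were 2, 8, 13 (10 lower and 3 higher) and 2 to 10, with the lowest without uvr8-6 dark replicate 2, uvr8-6 high-dose replicate 1 or WT dark replicate 2. For the xpf-3 response difference at the low dose (7), DESeq2 gave 11 and 1 library left out 3 to 7, the lowest without WT dark replicate 1. At the high dose (1) the compared groups only and no filter gave 0, and 1 library left out 0 to 1. For xpf-3 against WT in the dark (0), DESeq2, the replicate block and leaving out WT dark replicate 3 gave 1 each, with 0 to 1 over the libraries left out. Over all loci, that comparison gave 33 calls, 453 with DESeq2 and 1 with the compared groups only. For the uvr8-6 response difference at the high dose, 54.6% of all calls were higher, and 42.6% with DESeq2 size factors.

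Among values of named genes, leaving out 1 library kept the call, or its absence, in 1342 cases. The call was lost in 84 and gained in 14. No value called in either fit changed direction, and directions of values called in neither fit were not counted. Among values called in either fit, directions turned only where near copies were summed. A sum of several genes is another quantity than 1 gene's value. It also ended the calls of GSTU4 in WT at the low dose (0.36) and of GSTU24 between doses in uvr8-6 (0.46) and WT (0.21). GSTU26, summed with GSTU24 and GSTU25, then came to 2.32 and 1.90 in xpf-3 at the low and high dose, 1.02 and 1.48 in uvr8-6 with 0.46 between doses, and 2.37 and 2.59 in WT. GSTU6, summed with its array, came to 0.70 between doses in xpf-3 and 0.85 and 0.62 (high dose over dark and over low) in uvr8-6. GSTU25 in the low-dose xpf-3 response difference came to -0.049, GSTU18 in WT at the low dose to 0.0184, and GSTU20 and GSTF9 in uvr8-6 dark to -0.0557 and -0.0121. The cause of the other changes was not tested.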
